A study of Homo sapiens with 15 samples.

Results

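The comparison set H9 cells exposed to a low dose of a particulate standard reference material against vehicle controls. H9 is an established human embryonic stem cell line, and the cultures were taken through an osteogenic (bone-forming) differentiation and collected on day 7. The control group, labelled UNT, had received DMSO at 0.1%, and the exposed group, labelled SRM_IC25, had received the NIST standard reference material (SRM) at 0.003 µg/mL, the concentration that the labels call a protein-based IC25. Both groups were wild type, both spent the first days in serum medium that allows spontaneous differentiation, and both received vitamin D3, beta-glycerophosphate and ascorbic acid from day 5. Exposure ran from day 0. Each group held 3 RNA-seq libraries, taken from a series of 15 libraries in 5 groups. Of 60675 genes in the count table, 15269 reached 1 CPM (counts scaled to a common library size) in at least 3 of the 6 libraries, and the 15199 of these with a known GC content were tested. The labels do not say whether replicates came from separate cultures, so the p-values measure the spread between these libraries, which may be technical.

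Embryonic stem cells hold their undifferentiated state through a transcription factor circuit around OCT4 (POU5F1), SOX2 and NANOG, which is taken down as cells enter a lineage. Bone-forming cells can arise from paraxial mesoderm, lateral plate mesoderm or neural crest, and a serum culture of this kind is a mixture of several of these fates. Organic compounds on airborne particles can activate the aryl hydrocarbon receptor, a ligand-driven transcription factor whose best known targets are the cytochrome P450 genes CYP1A1 and CYP1B1, and metals or oxidants can induce metallothioneins and NRF2 targets.

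The libraries held 20084912, 17684697 and 17294612 counts in UNT and 13169968, 51162312 and 16959125 in SRM_IC25. Pairs of libraries correlated at 0.977 to 0.995 (Pearson, log2 CPM across genes). As to the labelled cell state, stem cell genes such as LIN28A and early lineage genes such as PAX6, HAND1 and COL1A1 were all measured well above the filter, while 3 defining genes of mature osteoblasts were near 0. SP7, the osteoblast transcription factor also called osterix, had 18, 13 and 13 counts in UNT and 19, 41 and 14 in SRM_IC25. BGLAP, which encodes osteocalcin, had 2 to 13 counts per library, and IBSP, which encodes bone sialoprotein, had 1 count in a single UNT library and 0 in the other 5. The late bone markers were thus too low for a comparison, and none of the 3 was tested.

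Almost no gene passed the test at this dose in the reported fits, which hold no block for replicate number. After adjustment of each library for its trends with GC content and gene length, 1 of 15199 genes was higher at SRM_IC25 at an adjusted p under 0.05 (0.00658% of genes tested) and 0 were lower (edgeR quasi-likelihood test, Benjamini-Hochberg). With the usual TMM scaling and no such adjustment, 0 genes passed in either direction, and the smallest adjusted p was 0.101. At an unadjusted p under 0.05 stood 1234 genes in the adjusted fit (8.12%), of which 473 were higher (3.11%) and 761 lower (5.01%). In the TMM fit 3544 genes did so (23.3%), of which 1327 were higher (8.73%) and 2217 lower (14.6%). DESeq2 on the same counts called 28 genes with the adjustment and 890 without it. With a block for replicate number, edgeR called 429 with the adjustment and 4534 without it. The median gene had a standard error (SE) of 0.11 on its log2 fold change and a 95% interval reaching 0.245 to either side. That interval is not corrected for the number of genes, so passing over 15199 genes asked for a larger change. LIN28A, at a log2 fold change of -0.49 with an SE of 0.09, did not pass. The median log2 fold change was -0.00, and its 5th and 95th percentiles over genes were -0.29 and 0.29.

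A trend with the base composition of genes separated the libraries of the 2 groups. GC content is the share of G and C bases in a transcript, and it can change how well a fragment is amplified and sequenced. The slope of a library's log2 CPM on GC content, per 10 percentage points and relative to the UNT mean, was -0.00, -0.03 and 0.03 in the 3 UNT libraries and 0.16, 0.21 and 0.23 in the 3 SRM_IC25 libraries. Every SRM_IC25 library was thus steeper than every UNT library. The difference of 0.20 had an exact permutation p of 0.1 (two-sided), the smallest that 3 against 3 libraries allow. It lay between 0.18 and 0.22 when each library was left out in turn. The SRM_IC50 libraries had slopes of 0.02 to 0.09, and the 6 libraries exposed to fine particulate matter 0.03 to 0.12. Because the slope separates the groups completely, the GC trend and the exposure cannot be told apart from these libraries.

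In genes of at most 35% GC (275 genes) the median log2 fold change was -0.34 with TMM scaling, and in genes above 65% GC (537 genes) it was 0.26. After the adjustment these medians were -0.01 and 0.01. Across genes, the Spearman correlation of log2 fold change with GC content was 0.721 with TMM scaling and 0.00935 after adjustment, over 15199 genes that are not independent replicates. Gene length behaved differently. Its slope per doubling of length was 0.09, 0.00 and -0.09 in the UNT libraries and 0.07, -0.06 and -0.08 in the SRM_IC25 libraries, so each group held positive and negative slopes and the groups overlapped (difference -0.02, exact permutation p = 0.8, two-sided). The sign of that difference turned without UNT replicate 1 (0.02) or without SRM_IC25 replicate 3 (0.01).

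**Figure D1:**
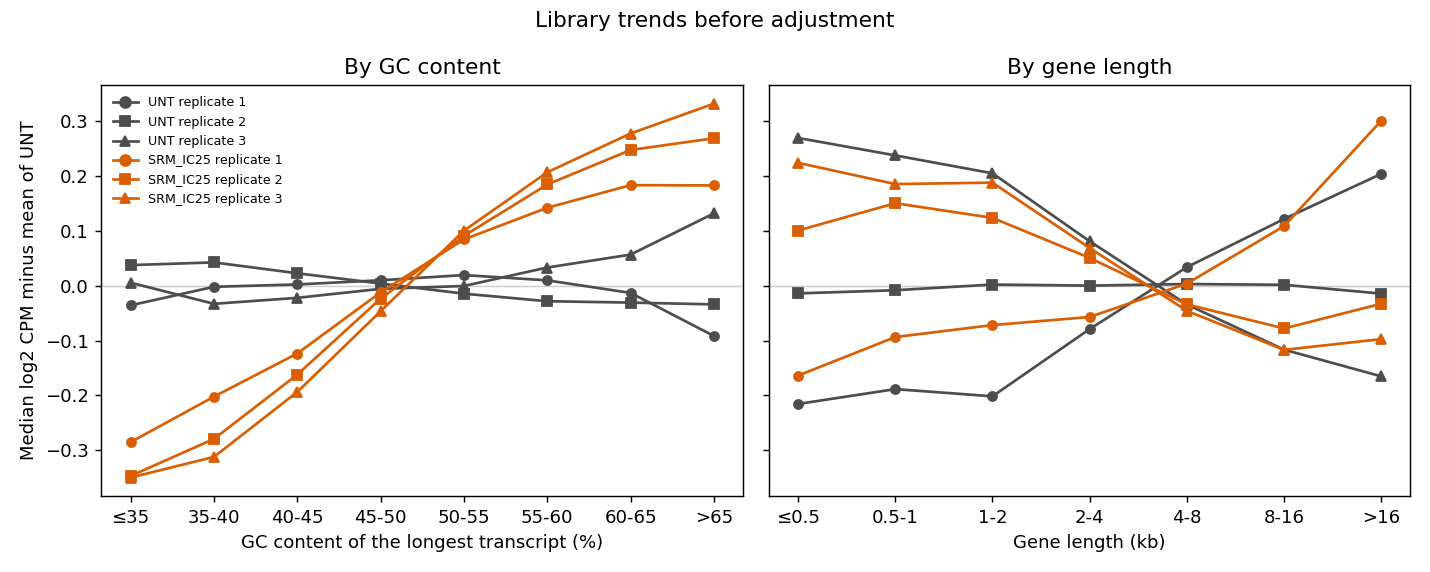
Median log2 CPM of each library relative to the mean of the UNT libraries (y axis), for 8 classes of GC content in percent (left) and 7 classes of gene length in kb (right), before adjustment. Each line is 1 library; the 3 SRM_IC25 lines run from -0.35 to -0.29 in the lowest GC class to 0.18 to 0.33 in the highest, while the length trends of both groups cross.

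In a panel of lineage and exposure markers, the 2 genes whose fold change the adjustment raised most were SPP1 and CGA, and the 2 it lowered most were COL1A1 and SOX10. Sequences of 3 of them are printed to let the base composition be seen beside the values, each as 120 coding bases (GENCODE release 29, GRCh38) whose GC content is closest to that of the gene's longest transcript, with G and C in capitals.
SPP1: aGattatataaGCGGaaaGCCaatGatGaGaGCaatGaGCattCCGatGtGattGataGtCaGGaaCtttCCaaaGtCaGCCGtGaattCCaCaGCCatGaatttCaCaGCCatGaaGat
CGA: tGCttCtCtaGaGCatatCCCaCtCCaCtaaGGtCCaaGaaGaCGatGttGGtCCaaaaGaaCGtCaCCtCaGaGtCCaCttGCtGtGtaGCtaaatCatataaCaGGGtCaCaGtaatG
SOX10: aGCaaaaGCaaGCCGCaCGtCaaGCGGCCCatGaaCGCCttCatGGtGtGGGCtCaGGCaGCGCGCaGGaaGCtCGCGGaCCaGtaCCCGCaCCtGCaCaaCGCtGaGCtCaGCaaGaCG
SPP1 (osteopontin, chr4:87975650-87983426, plus strand) has 41.8% GC in its transcript, and its log2 fold change was -0.40 with TMM scaling and -0.19 after adjustment. CGA, the shared alpha subunit of the glycoprotein hormones (chr6:87085498-87095406, minus strand), has 42.9% GC, and its values were 0.10 and 0.29. At the GC-rich end, SOX10, a neural crest transcription factor (chr22:37970686-37987422, minus strand, 63.5% GC), stood at 0.57 and 0.34. COL1A1, the main collagen chain of bone matrix (61.1% GC), stood at 0.30 and 0.01. None of the 4 passed the test in either fit. The genes rich in A and T were pulled up by the adjustment and those rich in G and C were pulled down.

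The single gene called in the adjusted fit was an antisense RNA gene without a symbol, ENSG00000273149 (chr13:45340039-45341183, plus strand). It lies opposite TPT1, which encodes the abundant translationally controlled tumour protein, and their exons overlap. It falls outside the rule for named genes, which asks for protein-coding genes, and was named after its values were seen. Its adjusted CPM was 10.3, 13.2 and 18.7 in UNT and 40.4, 54.2 and 47.3 in SRM_IC25. All 3 exposed libraries were above all 3 controls, and the log2 fold change was 1.76 (SE 0.19, adjusted p = 0.0462, edgeR). TPT1 itself stood at 2098, 2494 and 2957 CPM in UNT and 2132, 2521 and 2664 in SRM_IC25, with overlapping groups and a log2 fold change of 0.05 (SE 0.18). The adjusted p of the antisense gene's edgeR test was 0.996 when UNT replicate 2 was left out. It was 0.495 without replicate 2 and 0.386 without replicate 3 of SRM_IC25, 0.801 with the GC offset alone, 0.165 when the SRM_IC50 libraries joined the fit and 0.0567 with bins in place of splines, so each of these ended the call. Over those settings its log2 fold change lay between 1.64 and 1.80. How the counting assigned strand is not given in the sources used here, so reads of the antisense gene and of TPT1 cannot be told apart with certainty.

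Other antisense genes stood at the far end of the fold changes too. Of the 29 genes that differed more than 2-fold in the adjusted fit, 26 were higher at SRM_IC25 and 3 lower, and 11 of the 26 were annotated as antisense. These 11 are 2.2% of the antisense genes tested, where the 26 are 0.171% of all genes tested. Some of them, such as the ENSG00000270823 and RPL30-AS1 genes below, were under 1 CPM in every UNT library. They passed the filter only through the SRM_IC25 libraries. So weak a gene is tested only where a group is high, and these shares carry no weight as support. ENSG00000270823, opposite the imprinted gene MEST, had an adjusted CPM of 0.341, 0.0505 and 0.256 in UNT and 1.30, 2.19 and 1.46 in SRM_IC25 (log2 3.00, SE 0.44, adjusted p = 0.26, edgeR). RPL30-AS1, opposite the ribosomal protein gene RPL30, had 0.300, 0.450 and 0.245 in UNT and 1.60, 6.99 and 2.98 in SRM_IC25 (log2 3.68, SE 0.58, adjusted p = 0.318, edgeR). In both the groups did not overlap, neither passed the test, and the opposite genes differed little: MEST had a log2 fold change of 0.02 (SE 0.08) and RPL30 of 0.10 (SE 0.17). By median the class lay near the other genes. Of 501 antisense genes tested, the groups did not overlap in 46 that were higher (9.18%, against 5.7% of all genes tested) and 38 that were lower (7.58%, against 8.84%), with a median log2 fold change of 0.05. Their share of all counts was 0.282% ± 0.0077 (SD, n = 3) in UNT and 0.300% ± 0.0031 (SD, n = 3) in SRM_IC25, and no UNT library reached the lowest SRM_IC25 library.

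Genes of the undifferentiated state had lower values in the exposed libraries, although 0 of 23 tested members of a pluripotency list passed the test. Their log2 fold change was negative in 21 of the 23, with a median of -0.25 where that of all genes tested was -0.00 (51.2% of all genes were negative). In 11 of 23 the 3 SRM_IC25 libraries were all below the 3 UNT libraries, against 8.84% of all genes tested, and in 0 were they all above. At an unadjusted p under 0.05 stood 12 of 23 on the lower side, against 5.01% of all genes. This list, like the others below, was chosen with earlier results of these data known. Such shares of a list against all genes therefore carry no weight as support. Relative to the UNT mean, the list's median stood at 0.02, 0.05 and -0.04 in the UNT libraries and at -0.22, -0.22 and -0.28 in the SRM_IC25 libraries. The list has a median GC content of 48.5%, against 48.3% for all genes tested, and its median was -0.27 with TMM scaling. Over 19 alternative settings, leave-one-out included, it stayed between -0.31 and -0.21. In bulk RNA, fewer cells of a type and less RNA per cell cannot be told apart.

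LIN28A, an RNA-binding protein that blocks let-7 maturation in stem cells, had the lowest p of the list. It stood at 905, 951 and 926 adjusted CPM in UNT and 667, 627 and 685 in SRM_IC25 (log2 -0.49, SE 0.09, 95% interval -0.69 to -0.30, adjusted p = 0.389, edgeR). The exposed libraries lay well below the controls with a narrow spread in each group. Still the value did not pass over 15199 genes in the reported fit. LIN28A passed in 4 of 18 alternative settings, among them a fit with a block for replicate number. SOX2, a core factor of the circuit, stood at 132, 130 and 115 in UNT and 105, 86.6 and 104 in SRM_IC25 (log2 -0.36, SE 0.09). TERF1, a telomere-binding protein that is high in stem cells, stood at 62.5, 79.9 and 81.6 against 50.5, 55.8 and 56.1 (log2 -0.46, SE 0.11). Neither pair of groups overlapped. SALL4, a zinc finger factor that works with OCT4, stood at 142, 136 and 139 against 122, 110 and 119 (log2 -0.25, SE 0.07). TDGF1, the Nodal co-receptor, stood at 16.8, 19.6 and 14.6 against 10.7, 13.9 and 11.8 (log2 -0.46, SE 0.14). The other core factors were less clear. POU5F1 stood at 192, 247 and 241 against 165, 211 and 198 (log2 -0.24, 95% interval -0.51 to 0.03), and NANOG at 4.48, 6.50 and 5.98 against 4.75, 4.56 and 3.74 (log2 -0.36, 95% interval -0.76 to 0.03). In both, UNT replicate 1 was the lowest control and lay among the exposed libraries. Members that did not follow the rest included CDH1 (E-cadherin, log2 -0.02), FOXD3 (0.05) and LIN28B (0.10, or -0.17 with TMM scaling).

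Anterior neural genes also had mostly lower values, with the second lowest list median in the adjusted fit. Of 24 tested members of a neuroectoderm and eye field list, 0 passed, 20 were negative and the median was -0.21. In 6 of the 24 the exposed libraries were all below the controls, against 8.84% of all genes tested. Among the 6 were LHX2, SIX3, PAX6, ZIC2 and SOX3, of which SOX3 turned from -0.17 to 0.06 and ZIC2 went from -0.30 to -0.11 with TMM scaling. With TMM scaling 3 of the 24 were lower without overlap, against 17.3% of all genes tested. LHX2, which acts early in the eye field, stood at 22.7, 24.7 and 28.5 adjusted CPM in UNT and 21.1, 11.975 and 15.6 in SRM_IC25 (log2 -0.69, SE 0.18, adjusted p = 0.429, edgeR). SIX3 stood at 27.0, 24.9 and 27.6 against 24.1, 13.7 and 14.6 (log2 -0.65, SE 0.18). SRM_IC25 replicate 1 lay just under the controls in both genes, and replicates 2 and 3 lay lower still. RAX, which sets up the eye field, followed the same split at 35.5, 45.04 and 48.8 against 37.8, 19.4 and 22.4 (log2 -0.73, SE 0.22), with overlapping groups. PAX6 stood at 134, 132 and 175 against 121, 84.1 and 107 (log2 -0.50, SE 0.14). The list median was -0.12 with TMM scaling, where 5 other lists besides pluripotency lay lower. Without SRM_IC25 replicate 2 it was -0.13 and without UNT replicate 1 it was -0.14. By library it was 0.10, -0.09 and -0.07 in UNT and -0.07, -0.35 and -0.23 in SRM_IC25, so replicate 1 of the exposed group lay within the controls. Genes of early neurons, 15 tested, had a median of -0.00 and 0 members whose groups did not overlap.

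**Figure D2:**
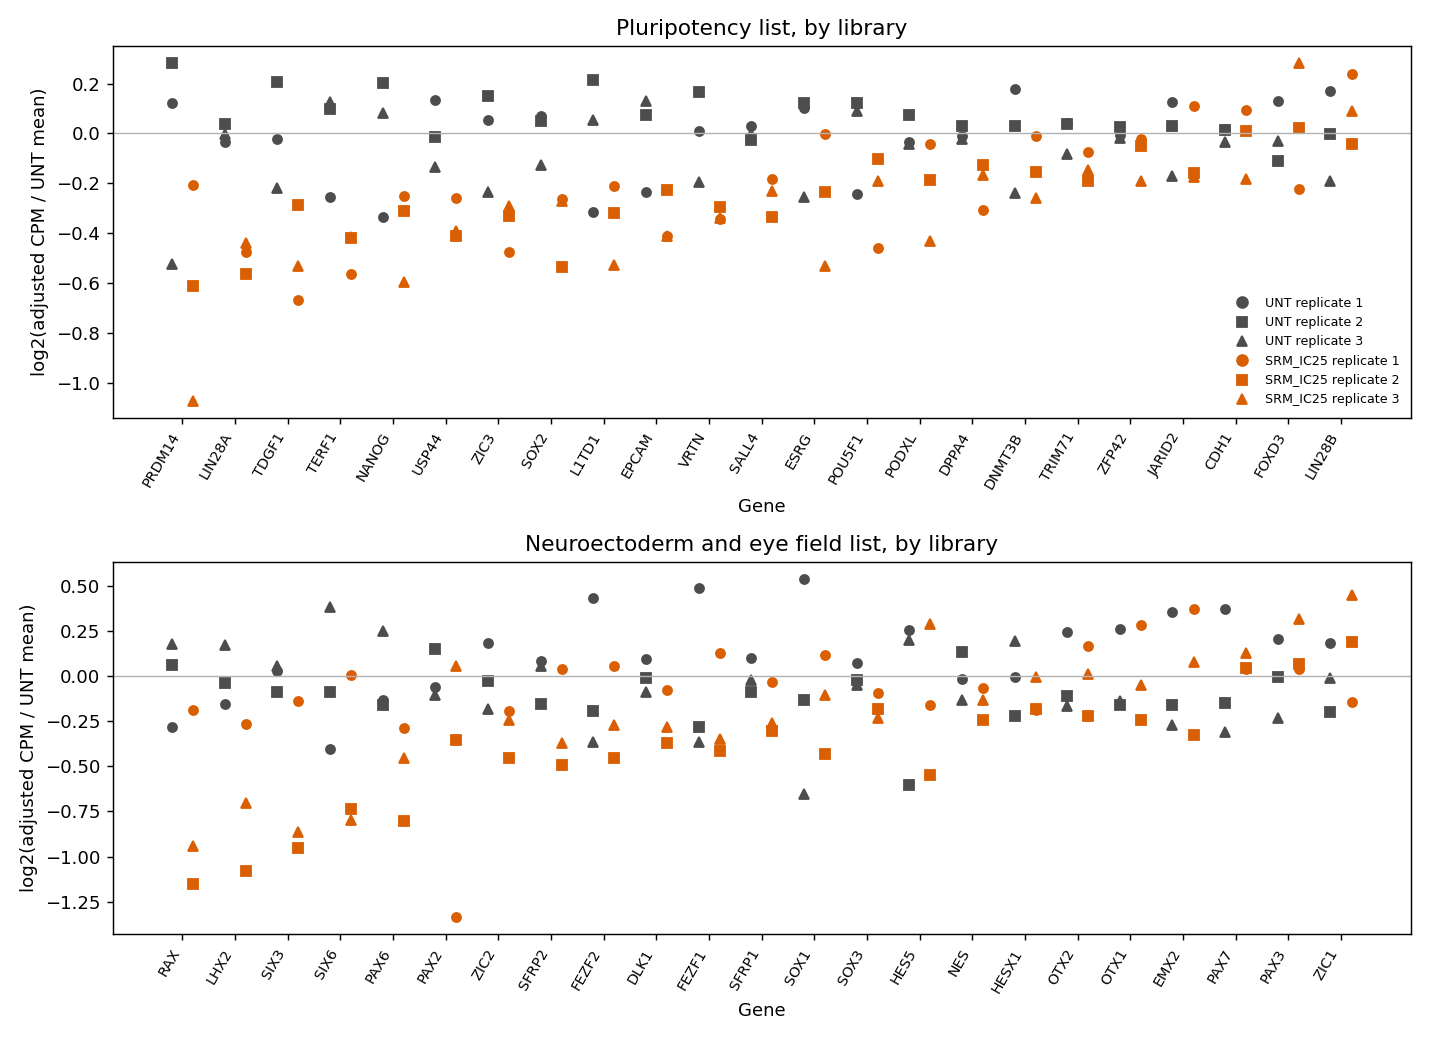
Adjusted CPM of each library relative to the UNT mean on a log2 scale (y axis) for the tested genes of the pluripotency list (top) and 23 genes of the neuroectoderm and eye field list (bottom), ordered by fold change. Grey points are the 3 UNT libraries and orange points the 3 SRM_IC25 libraries; LIN28A and SOX2 separate the groups, and in LHX2, SIX3 and RAX replicate 1 of SRM_IC25 lies nearer to the controls than replicates 2 and 3.

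Lineages that can give rise to bone had small differences in both directions. Of 20 neural crest genes, 0 passed, 15 were positive and the median was 0.12 (0.11 with TMM scaling), with library medians of 0.13, -0.04 and -0.02 in UNT and 0.04, 0.07 and 0.19 in SRM_IC25. In 3 of the 20 the exposed libraries were all above the controls, against 5.7% of all genes tested. They were SNAI2 (60.5, 54.8 and 59.6 against 69.2, 67.7 and 64.1 adjusted CPM, log2 0.20), ETS1 (0.18) and TWIST1 (0.12). With TMM scaling SNAI2 was at -0.01 and ETS1 at 0.03. SNAI2 and TWIST1 encode factors of the epithelial to mesenchymal transition. Of 16 genes in a mesenchymal transition list that includes both, 12 were positive, with a median of 0.06. The lateral plate and cardiac mesoderm list was mixed, with 7 of 12 tested genes positive and 5 negative, 0 called and a median of 0.02 (0.13 with TMM scaling). At its low end stood GATA6, a mesoderm and endoderm factor (log2 -0.17, -0.05 with TMM scaling). In 3 of the 12 genes, all higher, the groups did not overlap: ACTC1, MEF2C and PRRX1 (log2 0.24, 0.06 with TMM scaling). Of all genes tested, 5.7% were higher without overlap. With TMM scaling the count was 1 of 12, against 11.6% of all genes tested. ACTC1, the cardiac actin that also marks early mesoderm, stood at 350, 345 and 386 adjusted CPM in UNT and 456, 465 and 421 in SRM_IC25 (log2 0.31, SE 0.08, adjusted p = 0.434, edgeR). MEF2C, a muscle and bone transcription factor, stood at 16.75, 13.9 and 13.1 against 16.9, 17.5 and 21.4 (log2 0.34, SE 0.13, 0.13 with TMM scaling).

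The osteoblast list was balanced. Of its 14 tested genes of 20 listed, 7 were positive and 7 negative, 0 passed, and the median was 0.00. RUNX2, the transcription factor that commits cells to the osteoblast lineage, stood at 4.94, 4.68 and 6.24 adjusted CPM in UNT and 7.28, 5.48 and 5.67 in SRM_IC25, with a 95% interval of -0.17 to 0.58 on its log2 fold change. ALPL, the alkaline phosphatase of mineralising cells, stood at 105, 90.7 and 82.9 against 82.1, 80.6 and 82.8 (log2 -0.18, 95% interval -0.38 to 0.02). The lowest control and the highest exposed library of ALPL were almost equal, and with TMM scaling the value was 0.01 and the groups overlapped. COL1A2, the second chain of type I collagen, stood at 626, 650 and 677 against 773, 796 and 764 (log2 0.26, 0.14 with TMM scaling, SE 0.08, adjusted p = 0.508, edgeR), with all exposed libraries above the controls. Its partner COL1A1 stood at 246, 259 and 243 against 289, 247 and 218, with overlapping groups. Of 28 collagen and matrix genes, 17 were positive with a median of 0.05, which was 0.21 with TMM scaling. Of 6 tested vitamin D response genes, 4 were positive. CYP24A1, the vitamin D hydroxylase induced by the receptor VDR, had a 95% interval of -0.27 to 0.46, in cultures that all received vitamin D3.

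Direct markers of particle exposure did not pass. CYP1A1 stood at 6.18, 7.39 and 6.16 adjusted CPM in UNT and 4.01, 6.54 and 5.89 in SRM_IC25 (log2 -0.21, 95% interval -0.62 to 0.19). CYP1B1 stood at 28.9, 29.7 and 30.7 against 23.2, 24.4 and 24.9 (log2 -0.30, SE 0.08, adjusted p = 0.427, edgeR), below the controls in all 3 exposed libraries. The CYP1A1 interval ends at 0.19 on the log2 scale, a bound on any increase at this spread. Of 10 tested aryl hydrocarbon receptor genes, 8 were negative and 0 passed, with a median of -0.15. The receptor AHR (log2 -0.21, -0.47 with TMM scaling) and the NRF2 gene NFE2L2 (log2 -0.34, SE 0.09) were also lower without overlap, while the receptor's repressor AHRR (0.11, 0.31 with TMM scaling) and TIPARP (-0.01), a target that feeds back on it, overlapped. Of 23 NRF2 and antioxidant genes, 7 were positive and 16 negative. HMOX1, haem oxygenase, had a 95% interval of -0.26 to 0.17 (log2 -0.05, or 0.13 with TMM scaling) and NQO1 of -0.29 to 0.15. MT2A, a metallothionein induced by zinc and cadmium, stood at 8.52, 9.81 and 10.4 against 10.52, 13.4 and 14.4 (log2 0.43, SE 0.14, adjusted p = 0.493, edgeR). MT1X of the same family did not follow it (log2 -0.12, 95% interval -0.59 to 0.34). IL6, an inflammatory cytokine, had an interval of -0.55 to 0.78, and CXCL8 had 0 to 4 counts per library.

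**Figure D3:**
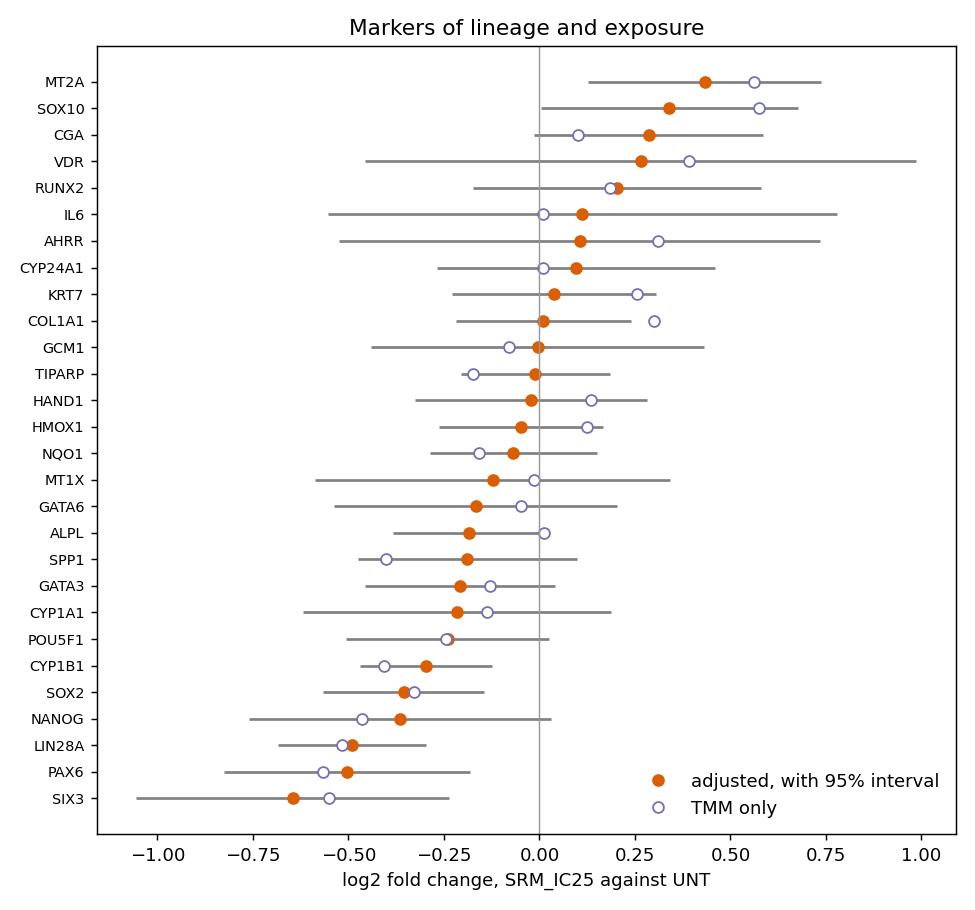
Log2 fold change at SRM_IC25 against UNT (x axis) of 28 tested panel genes, with 95% intervals from the adjusted fit (orange) and the TMM value (open circles). None passed the test; the GC-rich genes COL1A1, SOX10 and KRT7 have higher TMM values than adjusted values.

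Most heat shock genes had lower values in the exposed libraries. Of 18 tested, 0 passed, 15 were negative, and the median was -0.10 (-0.18 with TMM scaling). In 6 of the 18 the exposed libraries were all below the controls, against 8.84% of all genes tested. By library the median was -0.07, 0.01 and 0.07 in UNT and -0.16, -0.10 and -0.13 in SRM_IC25, without overlap. HSP90AA1, the inducible cytosolic HSP90, stood at 1476, 1904 and 1947 adjusted CPM against 1182, 1358 and 1360 (log2 -0.45, SE 0.13, adjusted p = 0.46, edgeR). HSPD1, the mitochondrial chaperonin, stood at 743, 923 and 840.45 against 643, 697 and 665 (log2 -0.32, SE 0.10). HSPA1A and HSPA1B are near-identical copies, and their values of -0.21 and -0.23 are uncertain. With TMM scaling they were -0.01 and -0.06, and the groups overlapped. Of 31 cell cycle and replication genes, 21 were negative with a median of -0.04. The groups did not overlap in 7, all lower, where 8.84% of all genes tested were lower without overlap. With TMM scaling that count was 13 of 31, where 17.3% of all genes tested were lower without overlap. The list's median GC content is 45.5%, below that of all genes tested. KIF20B, a kinesin of cell division, had the lowest value at 69.0, 101 and 98.8 against 63.7, 52.3 and 56.4 (log2 -0.65, SE 0.14). TOP2A, the topoisomerase of dividing cells, had -0.19 (-0.43 with TMM scaling).

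In the signalling lists 0 genes passed. Without overlap, 4 of 27 WNT genes were lower and 4 higher. Of 29 BMP and TGF-beta genes 5 were lower and 1 higher, and of 22 FGF and ERK targets 5 were lower and 1 higher. The shares over all genes tested were 8.84% lower and 5.7% higher. Among 27 WNT pathway genes the median was -0.02, and FZD5, FZD7, LGR4 and WNT5B were lower without overlap while NKD1, NKD2, RNF43 and WNT6 were higher. WNT5B went from -0.22 to -0.04 with TMM scaling. FZD7, a WNT receptor of stem cells, stood at 179, 183 and 165 adjusted CPM against 146, 139 and 151 (log2 -0.27, SE 0.07, adjusted p = 0.433, edgeR). NKD1 and RNF43, feedback inhibitors of WNT signalling, had log2 fold changes of 0.30 and 0.24. Of 29 BMP and TGF-beta genes, 20 were negative with a median of -0.10, and ID2, FST, TGFBR1, SMAD7 and BMPR1A were lower without overlap, although SMAD7 turned to 0.06 with TMM scaling. Of 22 FGF and ERK targets, 16 were negative with a median of -0.04, and the ETS factors ETV4 (log2 -0.31, -0.10 with TMM scaling) and ETV5 (-0.16 in both) were lower without overlap, as were ETV1, DUSP4 and FGF2. SPRY2, a feedback inhibitor of the pathway, was higher without overlap (log2 0.09). Of 21 Notch pathway genes, 11 were positive and 10 negative, with a median of 0.00 (0.13 with TMM scaling). HES1, the Notch target, stood at 49.3, 60.6 and 62.2 against 45.1, 44.5 and 44.1 (log2 -0.36, SE 0.09).

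Mitochondrial transcripts held values on both sides of 0. MT-ND6, the complex I subunit on the light strand of mitochondrial DNA, stood at 111, 94.6 and 107 adjusted CPM in UNT and 76.8, 76.7 and 75.7 in SRM_IC25 (log2 -0.45, SE 0.08, adjusted p = 0.389, edgeR). MT-ATP8 stood at 518, 562 and 536 against 466, 375 and 351 (log2 -0.44, SE 0.11). MT-ND3 was on the other side (log2 0.22), and the median over 13 mitochondrially encoded mRNAs was -0.05. These genes lie on 1 circular genome and their transcripts are cut from long precursors. Mitochondrial genes took 4.87% ± 0.20 (SD, n = 3) of counts in UNT and 4.39% ± 0.25 in SRM_IC25, and the ranges overlapped. Among 40 nuclear genes of oxidative phosphorylation the median was -0.00 and 4 were higher without overlap, against 5.7% of all genes tested. With TMM scaling 1 of the 40 was higher and 5 were lower without overlap, against 11.6% and 17.3% of all genes tested. COX7A2, a subunit of cytochrome oxidase, stood at 90.2, 98.04 and 123.2 against 129, 166 and 179 (log2 0.61, SE 0.14), and COX7C at 208, 219 and 259.5 against 273, 321 and 351 (log2 0.46, SE 0.11). COX7A2 has 33.0% GC and its TMM value was 0.22, so most of its value came with the adjustment; the TMM value of COX7C was 0.18.

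Ribosomal protein and histone lists varied widely between replicates of a group. The 58 cytosolic ribosomal protein genes had a median log2 fold change of 0.12, with 50 positive and 0 called, but the list's library medians were -0.26, -0.00 and 0.25 in UNT and -0.08, 0.21 and 0.26 in SRM_IC25. Replication-dependent histones, 12 tested of 40 listed, had a median of 0.36, with library medians of -0.13, -0.13 and 0.24 in UNT and 0.03, 0.49 and 0.75 in SRM_IC25. Histone mRNAs of this class mostly lack a poly(A) tail, and these libraries were made from polyadenylated RNA.

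**Figure D4:**
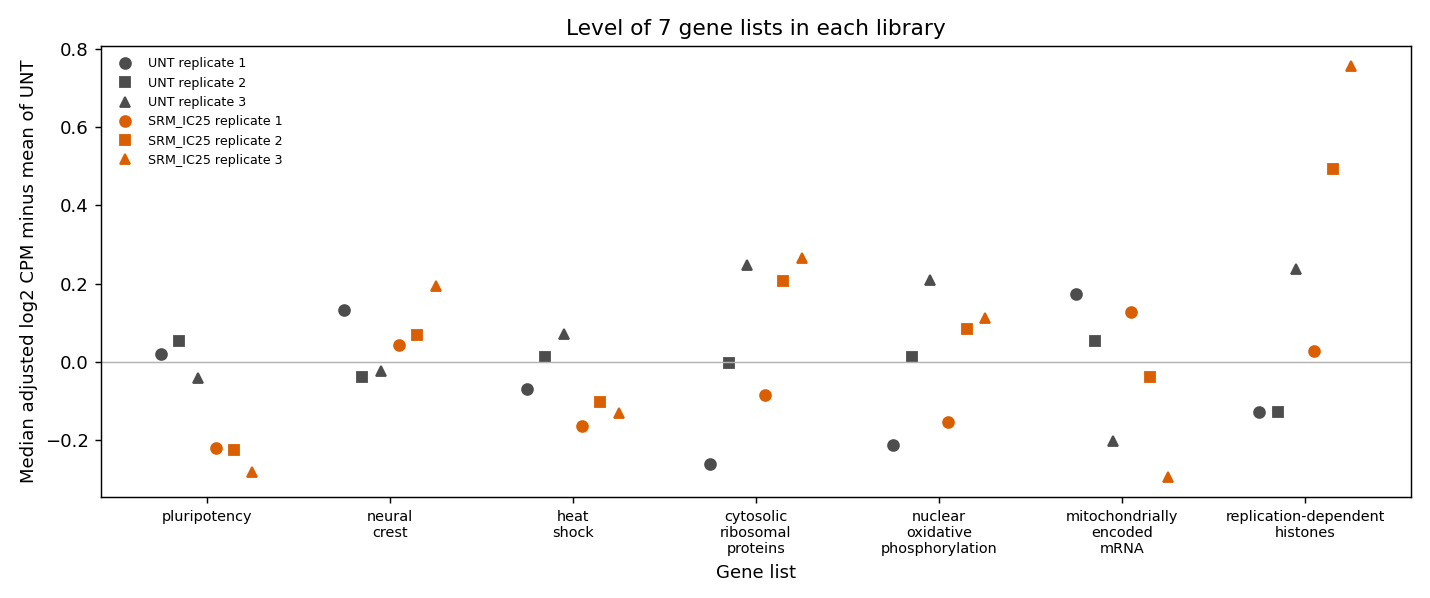
Median adjusted log2 CPM of 7 gene lists relative to the UNT mean (y axis) in each of the 6 libraries. The pluripotency list separates the groups (-0.28 to -0.22 against -0.04 to 0.05), while ribosomal protein, oxidative phosphorylation, mitochondrial and histone lists spread as widely within groups as between them.

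Markers of other cell types that such a culture could hold overlapped between the groups in all 5 lists, by their summed level over tested genes. The summed adjusted CPM of 21 tested amnion and trophoblast genes of 26 listed was 1923, 1925 and 2225 in UNT and 2278, 2204 and 1884 in SRM_IC25. For 20 simple epithelium genes it was 7700, 9165 and 10460 against 8465, 9799 and 8872. For 9 of 18 endothelium and blood genes it was 80.7, 74.2 and 72.2 against 82.1, 79.3 and 81.6, and the red cell genes GATA1 and HBZ were at 0 in all 6 libraries. The endothelium and blood sum was higher in 1 UNT library than in 1 SRM_IC25 library. By its median, the measure used for the other lists, that list did not overlap: 8 of its 9 genes were positive, the median log2 fold change was 0.13, and the library medians were -0.01, -0.08 and 0.05 in UNT and 0.16, 0.19 and 0.09 in SRM_IC25. Of 4 muscle genes the sums were 73.3, 81.4 and 78.7 against 68.5, 75.7 and 66.8, with MYOG at 0 in all 6 libraries, and of 16 motile cilium genes they were 116, 117 and 114 against 119, 116 and 119.5. The part of a changed cell mixture in the stem cell and anterior neural values was not tested.

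By the rule for named genes, no protein-coding gene was called, so the places went to the genes of lowest unadjusted p that had at least 5 CPM on average and groups that did not overlap on both scales. The 12 with higher values were CYREN, PCDHA4, TRMT9B, ISM2, MANBAL, PIGL, TECR, CLK2, PSMF1, SLCO2A1, ACTC1 and IFI27L1. The 12 with lower values were MT-ND6, LIN28A, CWF19L2, INAFM2, NRG1, NKX1-2, CXADR, SMIM10L2A, CCDC152, TMEM64, NECAB1 and ZNF268. CYREN, a regulator of DNA end joining, stood at 39.4, 36.7 and 37.9 adjusted CPM in UNT and 50.2, 52.8 and 58.9 in SRM_IC25 (log2 0.51, SE 0.08, adjusted p = 0.338, edgeR), and its TMM value was 0.19. With GC content taken from the union of its exons in place of the longest transcript, its log2 fold change was 0.23 (adjusted p = 0.554, edgeR). Most of the CYREN value thus came with the GC content of that transcript. ISM2 stood at 5.58, 6.19 and 6.53 against 9.73, 8.01 and 8.95 (log2 0.53, SE 0.13). NRG1, a ligand of ERBB receptors, stood at 21.0, 20.8 and 22.0 against 16.2, 14.5 and 16.01 (log2 -0.45, SE 0.09). CXADR, a cell adhesion protein of epithelia, stood at 129, 140 and 141 against 109, 106 and 107 (log2 -0.35, SE 0.07, -0.57 with TMM scaling). NKX1-2, a homeobox gene of caudal neural progenitors, stood at 25.6, 28.9 and 22.9 against 17.3, 19.1 and 16.7 (log2 -0.53, SE 0.11). Among these 24, CYREN, PIGL, TECR, ACTC1, NKX1-2, CCDC152, TMEM64 and NECAB1 share exon positions with a gene on the opposite strand, so their counts are uncertain to that extent. The same holds for POU5F1, TDGF1, CDH1, FOXD3, LIN28B, LHX2, PAX6, TWIST1, SOX10, MEF2C, GATA6, KRT7, VDR, AHR, NFE2L2, CYP1B1, NQO1, TIPARP, IL6, HSP90AA1, HSPD1, ID2, ETV4, FGF2, NKD1, RNF43 and CYP51A1. None of the 24 passed, and their adjusted p-values ran from 0.338 to 0.442. INSIG1, the sterol-regulated brake on cholesterol synthesis, stood at 46.0, 49.2 and 46.7 against 36.0, 38.3 and 38.0 (log2 -0.33, SE 0.07, adjusted p = 0.414, edgeR). CYP51A1, the sterol demethylase of the same pathway, stood on the other side at 2.89, 2.34 and 1.94 against 4.63, 3.69 and 4.07 (log2 0.75, SE 0.19, adjusted p = 0.427, edgeR). Of the 31 cholesterol and fatty acid synthesis genes, 25 were negative with a median of -0.05 after adjustment, and the median was 0.05 with TMM scaling.

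Across 40 lists, 23 had a median below 0 after adjustment. The sign of the list median differed between the adjusted and the TMM fit in 11 of the 40, among them the paraxial mesoderm list (-0.11 and 0.09), the retinoid list (-0.09 and 0.12) and the simple epithelium list (-0.02 and 0.14). The members of these 3 lists have median GC contents of 59.0%, 55.8% and 57.6%, above the 48.3% of all genes tested. By library medians, the groups did not overlap in 8 of the 40 lists. Of single genes tested, 8.84% were lower and 5.7% higher without overlap, and complete separation of 3 against 3 libraries has an exact permutation p of 0.1. The nearest UNT and SRM_IC25 medians were -0.022 and -0.026 for cholesterol and fatty acid synthesis. They were -0.030 and -0.035 for FGF and ERK targets, and -0.067 and -0.072 for the aryl hydrocarbon receptor list. The 6 lower ones were pluripotency, aryl hydrocarbon receptor, heat shock, retinoid, FGF and ERK targets, and cholesterol and fatty acid synthesis, and the 2 higher ones were mesenchymal transition and endothelium and blood. Only the pluripotency list and the neuroectoderm and eye field list had medians below -0.20 after adjustment.

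**Figure D5:**
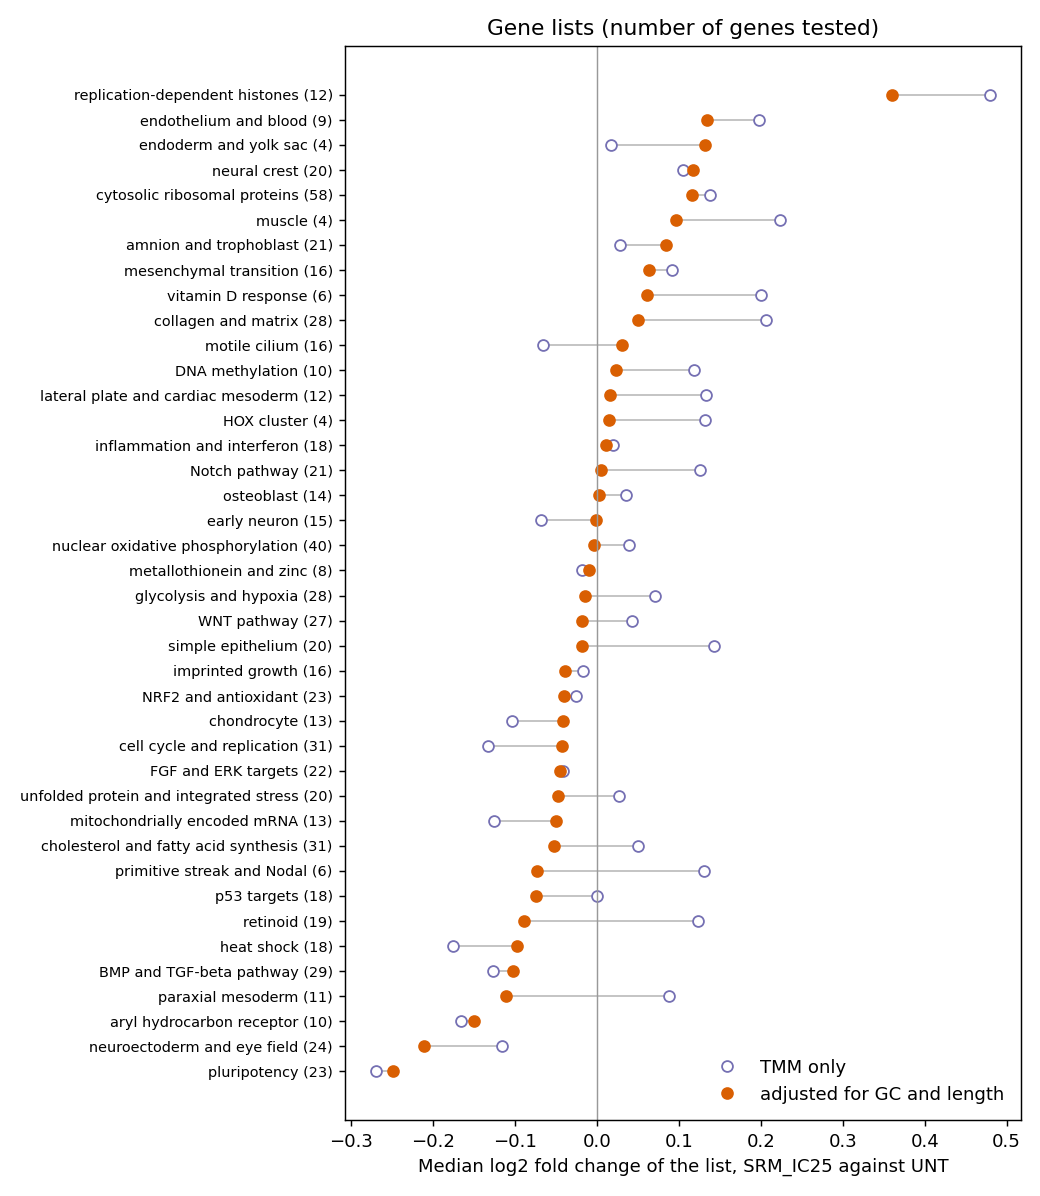
Median log2 fold change at SRM_IC25 against UNT of 40 gene lists (x axis), after adjustment for GC content and length (filled) and with TMM scaling only (open), with the number of genes tested in brackets. The pluripotency list is lowest in both; lists whose genes are rich in G and C move left with the adjustment.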

How the data were processed

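Polyadenylated RNA of 3 UNT and 3 SRM_IC25 samples was sequenced with a directional kit, per the labels' protocols. The authors deposited raw read counts for each gene. They also deposited FPKM values, of which 100% equalled the count scaled by gene length and library total. Per the submitters' processing notes, the tools were FastQC 0.11.7, HISAT2 2.2.1, SAMtools 1.10, featureCounts of Subread 2.0.15 and DESeq2, with GRCh38. No source used here names the annotation release, the strand setting or the handling of multiply mapped reads.

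Genes with 1 CPM in 3 of the 6 libraries were fitted with edgeR 4.0.16 (R 4.3.3, robust quasi-likelihood, TMM). For the adjusted fit, each library's deviation from the 6-library gene mean was fitted with natural splines (5 df each) of GC content and log length, without group labels, and used as offsets. Adjusted CPM is CPM after those offsets. GC content is that of the longest transcript in GENCODE release 29, because no genome was used here, and 70 genes without one were left out. Slopes were compared by exact permutation tests. DESeq2 1.42.0 on the counts and limma 3.58.1 on log2(FPKM + 1) and log2(FPKM + 0.1) were alternatives. The scripts were tested on simulated data. Genes were named by a rule: called protein-coding genes, then those of lowest p, a panel of 33 genes, and up to 4 members of each list. The members and the 40 lists were chosen with earlier results of these data known. Some members of the lists, and 1 sequence, are not reported here. Depth ranged from 13169968 to 51162312 counts per library, and counting error is only part of the spread between replicates.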

Additional observations from a re-analysis of the deposited data

How the results depend on the processing

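The number of genes called was unstable, against 1 with the adjustment and 0 with TMM scaling in the reported fits. DESeq2 called 28 (12 higher, 16 lower) with the adjustment and 890 (280 higher, 610 lower) without it. No filter on low counts gave 157 and 712 calls. Leaving out each library in turn gave 0 to 31 calls with the adjustment, the highest without UNT replicate 1 and 13 without SRM_IC25 replicate 1, and 0 to 438 with TMM scaling, again the highest without UNT replicate 1. A fit of the 9 SRM and UNT libraries gave 0 calls with the adjustment (1225 genes at an unadjusted p under 0.05), and a fit of all 15 libraries gave 1012 with TMM scaling. Restricting to 9151 genes with no opposite exon overlap gave 0 (720 at an unadjusted p under 0.05), a GC offset alone 0 (880), bins in place of splines 0 (1198), and a length offset alone 1113 (383 higher, 730 lower). limma on log2 FPKM called 0 genes in each of 3 forms (3181, 3169 and 3691 at an unadjusted p under 0.05). GC of the union of exons, added after the data were seen, left 1 call. The difference in length slope turned to 0.0229 without UNT replicate 1 and to 0.00638 without SRM_IC25 replicate 3, from a range of -0.0688 to 0.0229. The causes were not tested.

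Same-numbered libraries deviated together in pairs 1 and 3 (correlations 0.388 and 0.279 after adjustment) and not in pair 2 (0.0411), so the numbers were not taken as pairs. With a replicate block, 429 genes were called with the adjustment (181 higher, 248 lower) and 4534 with TMM scaling. These counts had been seen when the correlations were computed. Only SRM_IC25 replicate 2 correlated better with another number, UNT replicate 3 (0.247), than with its own. Replicates 1 and 3 of opposite groups ran against each other (-0.393 and -0.252). The number of genes called thus rests on the choice not to pair. The 429 included 11 of 23 pluripotency genes and 5 of 24 neuroectoderm and eye field genes, all lower. LIN28A, SOX2 and POU5F1 were among the 11 pluripotency genes. Of all 15199 genes tested, 248 were called lower and 181 higher in that fit. Other lists held calls too: 7 of 58 ribosomal protein genes and 3 of 40 nuclear oxidative phosphorylation genes were higher. Of 27 WNT genes 3 were lower, as were 3 of 28 glycolysis and hypoxia genes. Under 19 settings the pluripotency and the neuroectoderm and eye field medians kept their sign, as did several other lists. The sign turned in 9 settings for the osteoblast list, 11 for early neurons and 13 for nuclear oxidative phosphorylation. Depth limits the weakest genes most: 3 counts correspond to 0.0586 to 0.228 CPM.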
